A study of Mus musculus with 6 samples.

Results

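The 8 genes described here encode the catalytic subunits of the proteasome in their induced and constitutive forms, and the subunits of its interferon-induced cap. The members are Psmb8, Psmb9, Psmb10, Psme1 and Psme2, the 5 induced genes, and Psmb5, Psmb6 and Psmb7, the 3 constitutive partners. They were taken by name from the table of counts, in which all 8 were present among 55487 genes, and all 8 passed the filter on low counts that left 13022 genes. RNA was sequenced from untreated cells of 4T-1, a line from a mammary carcinoma of the mouse, either knocked out for Lyplal1 (n = 3 libraries) or wild type (n = 3 libraries). Lyplal1 encodes a protein of the acyl-protein thioesterase family, and the study's title links it to depalmitoylation of the DNA sensor cGAS and to immunotherapy. The libraries are named 4T1_sg2 for the knockout and 4T1_NC for the wild type. Whether the knockout is 1 clone or a pool, and whether the 3 libraries of a group came from separate cultures, is not given in the sources used here, so p-values measure only the spread between these libraries, which may be technical.

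The proteasome is the barrel-shaped protease that degrades ubiquitinated proteins in the cytosol and nucleus. Its 20S core carries 3 kinds of active site, on the subunits beta1 (caspase-like, encoded by Psmb6), beta2 (trypsin-like, Psmb7) and beta5 (chymotrypsin-like, Psmb5). Cells that receive interferon replace these in newly built cores by the induced subunits beta1i (Psmb9), beta2i (Psmb10) and beta5i (Psmb8), which gives the immunoproteasome and shifts cleavage toward peptides that fit MHC class I. Psme1 and Psme2 encode the alpha and beta subunits of PA28, a ring that caps the core and is also induced by interferon. Haematopoietic cells hold immunoproteasomes without added interferon, whereas most epithelial cells hold mainly the constitutive form. RNA levels do not show which subunits are built into proteasomes, and no protein was measured.

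Total counts ran from 16731209 to 16784906 in knockout libraries and from 17007616 to 17108975 in wild-type libraries. The Lyplal1 transcript had 54, 48 and 58 counts in knockout libraries and 76, 73 and 68 counts in wild-type libraries, and this difference missed the threshold (log2 fold change -0.28 ± 0.15 (SE), Benjamini-Hochberg adjusted p = 0.0886 by edgeR). The RNA level therefore does not check the genotype labels. All 8 markers of mammary epithelium had counts in every library, with summed levels of 4590 to 4610 TPM in knockout and 7740 to 7920 TPM in wild type. Of the 8, 2 rose, 5 fell and 1 was not called, in a comparison that called 82.3% of all 13022 tested genes. The 10 haematopoietic markers together held 38, 65 and 326 counts in knockout replicates 1 to 3, against 13, 13 and 11 counts in wild-type replicates 1 to 3. Most of them were Lyz2, a lysozyme gene of myeloid cells, with 28, 45 and 263 counts in knockout and 1, 0 and 0 in wild type. Ptprc, the pan-leukocyte gene, had 2, 1 and 4 counts in knockout and 3, 4 and 7 in wild type. Of the 5 fibroblast and endothelial markers, Pecam1 and Cdh5 were also highest in knockout replicate 3, with 34 counts each, while Pdgfra accounted for nearly all of the list's 2644 to 2865 counts in knockout and 1140 to 1192 counts in wild type. Of these 15 genes only Lyz2 and Pdgfra passed the filter, and both were called as higher in knockout; the call of Lyz2 (edgeR adjusted p = 0.0449) was lost without the low-count filter (0.0941) and without any 1 wild-type library (0.124 to 0.214) or knockout replicate 2 (0.0546). Knockout replicate 3 stood apart in these markers, and changes of the members are also given without it. Knockout replicates 1 and 2, which stay in that fit, also held more haematopoietic marker counts than any wild-type library.

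The induced catalytic genes Psmb8 and Psmb9 lie in the MHC region of chromosome 17 on either side of the peptide transporter gene Tap1. On GRCm38 (GENCODE M21) Psmb8 spans chr17:34197721-34201454 on the forward strand and Psmb9 chr17:34181987-34187764 on the reverse strand. Psmb10 spans chr8:105935735-105938444, Psme1 chr14:55578123-55581529 and Psme2 chr14:55587441-55591113. The constitutive partners are Psmb5 at chr14:54614119-54618022, Psmb6 at chr11:70525367-70527858 and Psmb7 at chr2:38588036-38644087. All are protein-coding genes. Promoter windows of 300 bases (250 before the RefSeq start and 50 from it, RefSeq on GRCm38.p6) were matched for 7 of the 8 members, all but Psmb7, and read on both strands for 2 motifs: the core of the interferon-stimulated response element (GAAA, any 2 bases, GAAA) and TTCNNNGAA, the core of the gamma-activated site. The first occurs in 3.44% and the second in 8.3% of all 32851 windows of this length. 4 windows are printed 5′ to 3′ on the gene's strand, with motif matches in capitals: the 2 member windows that hold a match, the window of Psmb9, and that of the constitutive Psmb5 for comparison.
Psmb8, chr17:34197945-34198244, forward strand: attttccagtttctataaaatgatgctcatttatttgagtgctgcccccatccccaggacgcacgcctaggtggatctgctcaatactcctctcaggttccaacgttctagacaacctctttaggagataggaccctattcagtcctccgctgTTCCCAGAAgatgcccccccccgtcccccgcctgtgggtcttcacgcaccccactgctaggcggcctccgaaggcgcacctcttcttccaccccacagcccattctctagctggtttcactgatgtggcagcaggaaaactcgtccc
Psme1, chr14:55578244-55578543, forward strand: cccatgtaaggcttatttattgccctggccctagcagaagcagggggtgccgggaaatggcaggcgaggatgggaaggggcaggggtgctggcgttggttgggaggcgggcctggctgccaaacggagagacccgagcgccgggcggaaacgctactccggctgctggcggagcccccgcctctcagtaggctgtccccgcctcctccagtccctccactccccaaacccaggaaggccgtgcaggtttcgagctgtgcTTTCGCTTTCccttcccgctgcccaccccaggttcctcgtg
Psmb9, chr17:34187281-34187580, reverse strand: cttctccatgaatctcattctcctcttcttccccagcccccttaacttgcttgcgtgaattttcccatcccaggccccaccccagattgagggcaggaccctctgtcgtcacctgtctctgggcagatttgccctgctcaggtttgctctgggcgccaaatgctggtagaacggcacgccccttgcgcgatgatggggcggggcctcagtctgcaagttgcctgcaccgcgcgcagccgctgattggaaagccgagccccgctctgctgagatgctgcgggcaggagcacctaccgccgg
Psmb5, chr14:54617946-54618245, reverse strand: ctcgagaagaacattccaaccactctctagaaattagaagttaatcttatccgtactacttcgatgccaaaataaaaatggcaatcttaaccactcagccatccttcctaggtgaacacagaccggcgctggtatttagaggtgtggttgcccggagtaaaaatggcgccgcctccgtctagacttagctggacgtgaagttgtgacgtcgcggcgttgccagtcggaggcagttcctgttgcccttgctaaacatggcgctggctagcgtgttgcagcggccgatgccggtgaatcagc
The match in Psmb8 is TTCCCAGAA, at bases -97 to -89 from the start. The match in Psme1 is TTTCGCTTTC, the reverse complement form of the interferon motif, at bases 10 to 19 of the transcript. The windows of Psmb9, Psmb10, Psme2, Psmb5 and Psmb6 hold neither. The RefSeq starts of Psmb9 and Tap1 lie 226 bases apart on opposite strands, so that 275 bases of the Psmb9 window are also in that of Tap1. Annotated starts differ between sources, by 474 bases for Psmb8, 434 for Psmb9 and 371 for Psme1 between RefSeq and GENCODE, so these windows cover 1 of several possible promoters.

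All 8 members were higher in Lyplal1 knockout cells, and the induced genes rose by larger folds than their constitutive partners. The induced genes rose 3.96-fold to 17.6-fold, with a median log2 fold change of 2.77, and the constitutive genes rose 1.72-fold to 1.87-fold, with a median of 0.88. The count of 8 called of 8 has to be read against a comparison in which 82.3% of all 13022 tested genes were called in either direction, 41.3% as higher and 40.9% as lower in knockout (edgeR quasi-likelihood test, adjusted p below 0.05). The median log2 fold change over all tested genes was 0.00. For none of the 8 did the knockout and wild-type libraries overlap, which also held for 83.1% of all tested genes. In bulk RNA a change in the number of cells that express a gene and a change in RNA per cell cannot be told apart. The share of calls that were rises was 50.2% here, 42.8% with upper-quartile factors and 38.5% on the deposited TPM (log2(TPM + 1)), settings that moved the median of all genes by -0.13 and -0.20.

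**Figure D1:**
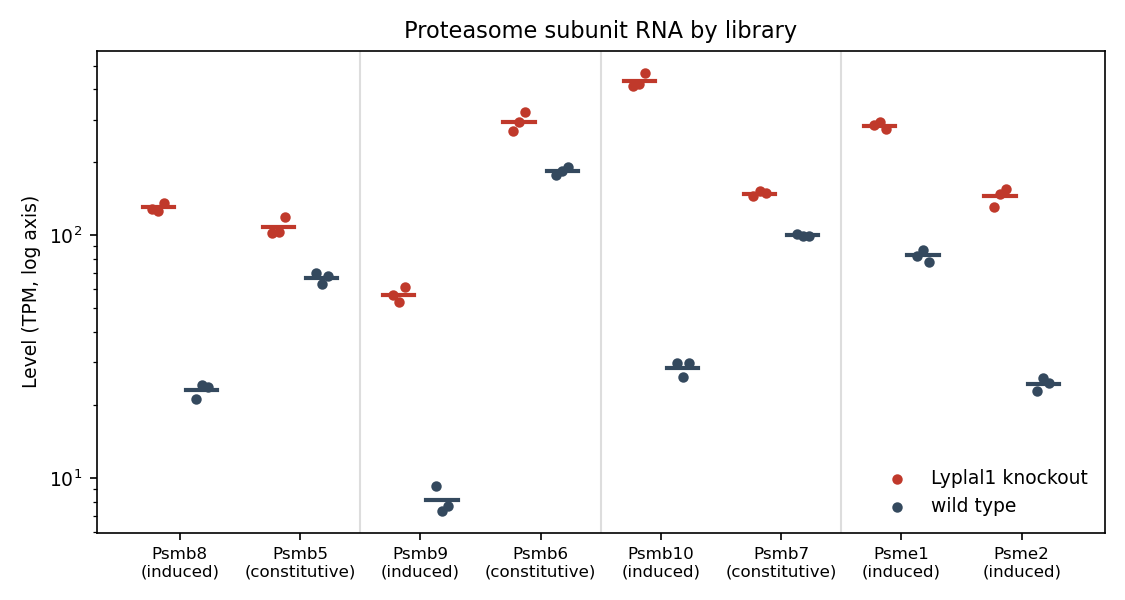
Level of each member in TPM (log axis) in the 3 Lyplal1 knockout libraries (left of each pair of columns) and the 3 wild-type libraries (right). Points are libraries and bars are means. Every knockout point lies above every wild-type point of the same gene, and the gaps are wider for the 5 induced genes than for the 3 constitutive ones.

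Psmb10, which encodes beta2i, changed most. It had 3035, 3085 and 3507 counts in knockout libraries, against 214, 185 and 213 counts in wild-type libraries. Its level was 434 ± 29.3 TPM in knockout and 28.5 ± 2.22 TPM in wild type (SD, n = 3 each). The log2 fold change was 4.14 ± 0.07 (SE), a 17.6-fold rise (edgeR adjusted p = 3.38e-21). By deposited TPM Psmb10 was the highest of the 8 members in knockout cells and the fifth in wild-type cells. By log2 fold change it stood at rank 202 of the 13022 tested genes.

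Psmb9, which encodes beta1i, came next by fold and was the lowest member in both groups by deposited TPM. It had 891, 839 and 983 counts in knockout and 143, 112 and 118 counts in wild type. Its level was 57 ± 3.9 TPM in knockout and 8.11 ± 1.06 TPM in wild type (SD, n = 3 each), and its log2 fold change was 3.02 ± 0.0844 (SE, edgeR adjusted p = 3.51e-21), an 8.12-fold rise. Its GENCODE annotation starts upstream of the RefSeq start and shares 212 exon bases, 5.8% of its exon length, with Tap1 on the opposite strand. Tap1, the first subunit of the peptide transporter, had 4814, 4907 and 5246 counts in knockout and 592, 567 and 601 in wild type. The strand setting of the counting is not stated, so reads from those bases cannot be told apart.

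Psmb8, which encodes beta5i, had 1870, 1837 and 2023 counts in knockout libraries and 300, 341 and 337 counts in wild-type libraries. Its level was 130 ± 5.08 TPM in knockout and 23 ± 1.62 TPM in wild type (SD, n = 3 each). It rose 6.55-fold, at a log2 fold change of 2.71 ± 0.0579 (SE, edgeR adjusted p = 2.82e-24). The antisense gene Gm20496, which shares 498 exon bases with Psmb8, had 0 counts in all 6 libraries.

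The PA28 subunits rose by different amounts. Psme1 had 2693, 2785 and 2651 counts in knockout and 765, 806 and 723 in wild type, at 283 ± 10.2 TPM in knockout and 82.6 ± 4.74 TPM in wild type. Psme2 had 993, 1122 and 1199 counts in knockout and 169, 191 and 182 in wild type, at 145 ± 12.2 TPM in knockout and 24.4 ± 1.55 TPM in wild type (SD, n = 3 each). Psme1 rose 3.96-fold (log2 fold change 1.99 ± 0.0444 (SE), edgeR adjusted p = 6.33e-24), the smallest rise among the induced members, and Psme2 rose 6.83-fold (log2 fold change 2.77 ± 0.0773 (SE), edgeR adjusted p = 1.89e-20). Psme2 has a near copy, Psme2b on chromosome 11, and reads that match both could be counted for either. Psme2b had 39, 47 and 37 counts in knockout and 6, 5 and 6 in wild type, which was 3.09% to 4.19% of the Psme2 count in knockout and 2.62% to 3.55% in wild type.

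The constitutive partners rose as well, each by less than 2-fold. Psmb5 (beta5) had 396, 396 and 471 counts in knockout and 263, 236 and 256 in wild type, a log2 fold change of 0.90 ± 0.0807 (SE, edgeR adjusted p = 8.11e-11). Psmb6 (beta1) had 2167, 2349 and 2649 counts in knockout and 1392, 1447 and 1502 in wild type, a log2 fold change of 0.88 ± 0.0666 (edgeR adjusted p = 5.93e-08). Psmb7 (beta2) had 2135, 2231 and 2246 counts in knockout and 1444, 1425 and 1426 in wild type, a log2 fold change of 0.78 ± 0.0396 (edgeR adjusted p = 4.48e-16). Psmb5 and Psmb6 were highest in knockout replicate 3, and Psmb7 differed little between libraries of a group. Mean levels were 108 ± 9.65, 294 ± 26.4 and 149 ± 3.34 TPM in knockout for Psmb5, Psmb6 and Psmb7, against 66.8 ± 3.55, 184 ± 6.86 and 99.9 ± 0.721 TPM in wild type (SD, n = 3 each). On log2(TPM + 1) their log2 fold changes were 0.68, 0.67 and 0.57 (limma-trend), still higher in knockout and called. Psmb7 shares 405 exon bases with Nek6 on the opposite strand, and Nek6 had 1366, 1284 and 1337 counts in knockout and 916, 934 and 939 in wild type. Copies named as pseudogenes of Psmb5, Psmb6 and Psmb7 held at most 5 counts in a library.

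Without knockout replicate 3, the library with the most haematopoietic marker counts, log2 fold changes were 4.07 for Psmb10, 2.96 for Psmb9, 2.71 for Psme2, 2.67 for Psmb8 and 2.01 for Psme1, and 0.82, 0.81 and 0.77 for Psmb5, Psmb6 and Psmb7, and all 8 were still called. Ordered by change, Psmb10 stood apart from Psmb9, Psmb8 from Psme1, and Psme1 from the constitutive genes, in that the ratio of the neighbouring genes did not overlap between the groups. Psmb9 and Psme2, Psme2 and Psmb8, Psmb5 and Psmb6, and Psmb6 and Psmb7 did not differ in change beyond the spread between libraries. Ordered by deposited TPM in knockout, the members ran Psmb10, Psmb6, Psme1, Psmb7, Psme2, Psmb8, Psmb5 and Psmb9, with overlapping ranges between Psmb6 and Psme1, Psmb7 and Psme2, and Psme2 and Psmb8. In wild type the order was Psmb6, Psmb7, Psme1, Psmb5, Psmb10, Psme2, Psmb8 and Psmb9, with overlap between Psme2 and Psmb8 only. The order depends on the gene length used. With the length of the principal coding transcript of each gene in place of all annotated exons, a setting added after the data were seen, Psmb6 was first (691 length-adjusted TPM) and Psmb10 second (565) in knockout, and Psmb5 (108) was last, next to Psmb9 (154). In wild type Psmb10 was then seventh (37.1), after Psmb8 (47.8) and Psme2 (44.8), and Psmb9 was again last (21.9).

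Each induced subunit takes the place of 1 constitutive subunit, so the ratio within a pair shows the balance at that site on the RNA level, and it does not depend on scaling between libraries. At the beta5 site the Psmb8/Psmb5 ratio of TPM was 1.26, 1.23 and 1.14 in knockout libraries, against 0.303, 0.384 and 0.35 in wild-type libraries. At the beta1 site the Psmb9/Psmb6 ratio was 0.21, 0.183 and 0.19 in knockout and 0.0525, 0.0396 and 0.0402 in wild type. At the beta2 site the Psmb10/Psmb7 ratio was 2.85, 2.77 and 3.13 in knockout and 0.297, 0.26 and 0.3 in wild type. The induced RNA thus exceeded its partner in every knockout library at beta5 and beta2, and fell short of it in every library at beta1. The ratios were 3.51-fold (log2 difference 1.81 ± 0.108, SE), 4.44-fold (2.15 ± 0.146) and 10.2-fold (3.35 ± 0.0844) higher in knockout at beta5, beta1 and beta2. In all 3 pairs the groups did not overlap, and the two-sided exact permutation test gave p = 0.1 for each (adjusted p = 0.1 over 6 ratios), the smallest value that 3 against 3 libraries allow. Taken singly, 83.1% of all tested genes did not overlap between the groups. The share among ratios of other gene pairs was not computed. Without knockout replicate 3 the log2 differences were 1.85, 2.16 and 3.30.

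**Figure D2:**
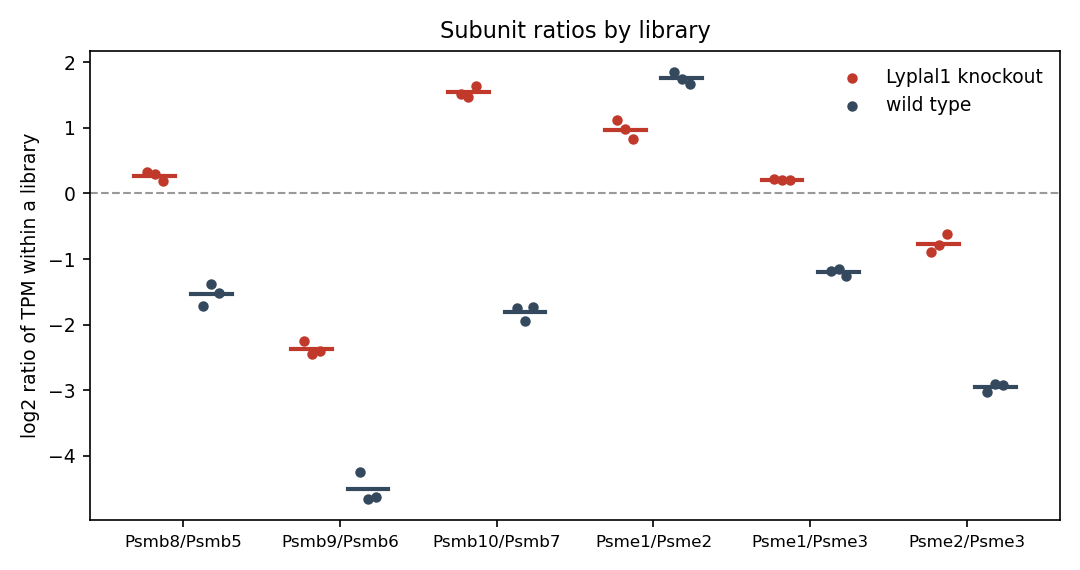
log2 ratio of TPM of 2 genes within each library, for the 3 catalytic pairs and for the caps, with the 3 Lyplal1 knockout libraries left and the 3 wild-type libraries right at each ratio. Points are libraries, bars are means, and the dashed line marks equal levels by deposited TPM, which depend on the gene length used. Psmb8/Psmb5 and Psmb10/Psmb7 lie on opposite sides of the line in knockout and wild type, Psmb9/Psmb6 lies below it in both, and Psme1/Psme2 is the only ratio that is lower in knockout.

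Expressed as a share of the pair, Psmb8 made up 54.7% ± 1.25 in knockout and 25.7% ± 2.25 in wild type, Psmb9 16.3% ± 1.0 in knockout and 4.22% ± 0.668 in wild type, and Psmb10 74.5% ± 1.2 in knockout and 22.2% ± 1.34 in wild type (SD, n = 3 each). The 3 induced subunits together held 53.7%, 52.4% and 53.0% of the TPM of the 6 catalytic subunits in knockout libraries, against 14.8%, 14.2% and 14.6% in wild-type libraries. The levels behind these shares depend on the gene length used. The deposited TPM divide by the length of all annotated exons, as found within 1% for 98.6% of 10363 genes tried and for all 8 members. That length is 3381 bases for Psmb8 and 899 for Psmb5, 3660 for Psmb9 and 1872 for Psmb6, and 1705 for Psmb10 and 3421 for Psmb7. The principal coding transcript of each gene is 1628, 899, 1352, 798, 1311 and 1160 bases for the same 6 genes in that order, so the excess differs between partners. With that transcript's length the induced share was 71.5% in knockout and 41.7% in wild type for Psmb8, 18.3% in knockout and 4.84% in wild type for Psmb9, and 56.2% in knockout and 11.2% in wild type for Psmb10. Under both lengths Psmb8 and Psmb10 were above their partners in knockout and below them in wild type. Psmb9 was below Psmb6 in both groups. By share, the order of Psmb8 and Psmb10 turned round in knockout only, and in wild type Psmb8 had the larger share under both lengths. The share of the 3 induced subunits together was then 45.2%, 43.6% and 44.6% in knockout libraries, below 50%, and 12.1%, 11.6% and 11.9% in wild-type libraries. The fold change of each ratio between knockout and wild type is the same under either length.

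**Figure D3:**
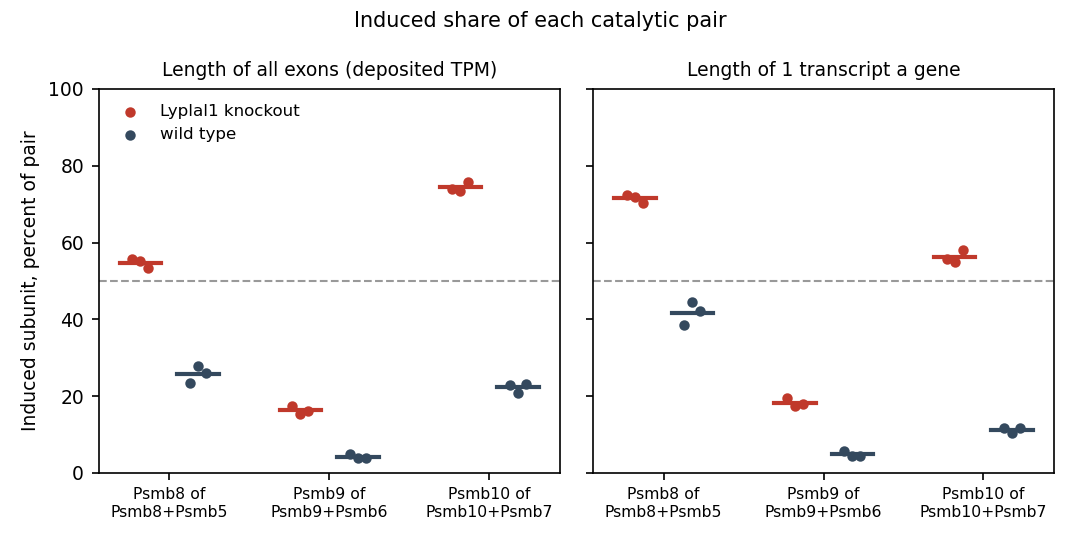
Share of each catalytic pair taken by the induced subunit, in percent, from the deposited TPM (left panel) and with the length of 1 principal transcript a gene (right panel). Points are the 3 Lyplal1 knockout libraries (left) and 3 wild-type libraries (right) of each pair, bars are means, and the dashed line marks equal levels. Psmb9 stays below 20% in both panels, and Psmb8 and Psmb10 lie above the line in knockout and below it in wild type.

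Within the PA28 cap Psme1 was less in excess of Psme2 in knockout libraries. The Psme1/Psme2 ratio of TPM was 2.17, 1.98 and 1.77 in knockout and 3.61, 3.37 and 3.17 in wild type, a log2 difference of -0.78 ± 0.101 (SE). Psme3 encodes PA28 gamma, the nuclear cap that is not built with PA28 alpha and beta. It was at 246 ± 8.99 TPM in knockout and 189 ± 3.62 TPM in wild type (SD, n = 3 each). The Psme1/Psme3 ratio was 1.16, 1.15 and 1.15 in knockout and 0.44, 0.452 and 0.417 in wild type, and the Psme2/Psme3 ratio was 0.536, 0.58 and 0.651 in knockout and 0.122, 0.134 and 0.132 in wild type. By deposited TPM Psme1 was above Psme3 in every knockout library and below it in every wild-type library. The levels of the cap ratios depend on the gene length used, and their fold changes between the groups do not. The length of all annotated exons is 1.99, 1.83 and 1.11 times that of the principal coding transcript for Psme1, Psme2 and Psme3. Groups did not overlap in any of the 3 cap ratios (exact permutation p = 0.1 each, adjusted p = 0.1), as 83.1% of all tested genes did not when taken singly. Of the other cap genes, Psme4, which encodes the activator PA200, fell to 213 ± 6.9 CPM in knockout, against 243 ± 2.66 CPM in wild type (SD, n = 3 each, log2 fold change -0.19, edgeR adjusted p = 1.66e-05). Psmf1, which encodes PI31, known as an inhibitor of the core in vitro, rose 1.66-fold. The thymus-specific subunit gene Psmb11 had 0, 1 and 0 counts in knockout and 1, 0 and 1 in wild type, and the testis-specific Psma8 had no count in any library.

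The constitutive partners rose alongside the rest of the core. All 11 genes of the other 20S subunits, which form the rings and carry no active site, rose, with log2 fold changes from 0.40 to 1.15 and a median of 0.75. The largest were Psmb3 at 1.15 ± 0.054, Psmb4 at 1.01 ± 0.0499 and Psma4 at 0.95 ± 0.0474, and the smallest was Psma3 at 0.40 ± 0.063 (SE). These directions held under every setting tried. Of all 13022 tested genes, 41.3% were called as higher in knockout. The median level of these 11 genes was 227, 229 and 247 TPM in knockout libraries and 161, 157 and 164 TPM in wild-type libraries. Relative to that median, Psmb5 stood at 0.461 ± 0.0192 in knockout and 0.416 ± 0.0156 in wild type, Psmb6 at 1.26 ± 0.0629 in knockout and 1.15 ± 0.0437 in wild type, and Psmb7 at 0.636 ± 0.0296 in knockout and 0.622 ± 0.0161 in wild type (SD, n = 3 each). On the same scale Psmb10 stood at 1.85 ± 0.0383 in knockout and 0.178 ± 0.0103 in wild type, Psmb8 at 0.557 ± 0.00789 in knockout and 0.143 ± 0.0116 in wild type, and Psmb9 at 0.243 ± 0.00864 in knockout and 0.0504 ± 0.00632 in wild type. Adding both genes of a site gave 583 ± 30.4 TPM in knockout and 128 ± 2.46 TPM in wild type for beta2, 352 ± 29.1 TPM in knockout and 193 ± 6.02 TPM in wild type for beta1, and 239 ± 14.7 TPM in knockout and 89.8 ± 2.44 TPM in wild type for beta5 (SD, n = 3 each). These sums and their change between the groups, and the levels relative to the 20S median, depend on the gene length used. The relative levels were computed from the deposited TPM only. With the length of the principal coding transcript the beta2 sum was 1000 length-adjusted TPM in knockout and 332 in wild type. The beta1 sum was then 845 in knockout and 455 in wild type, and the beta5 sum 379 in knockout and 115 in wild type.

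**Figure D4:**
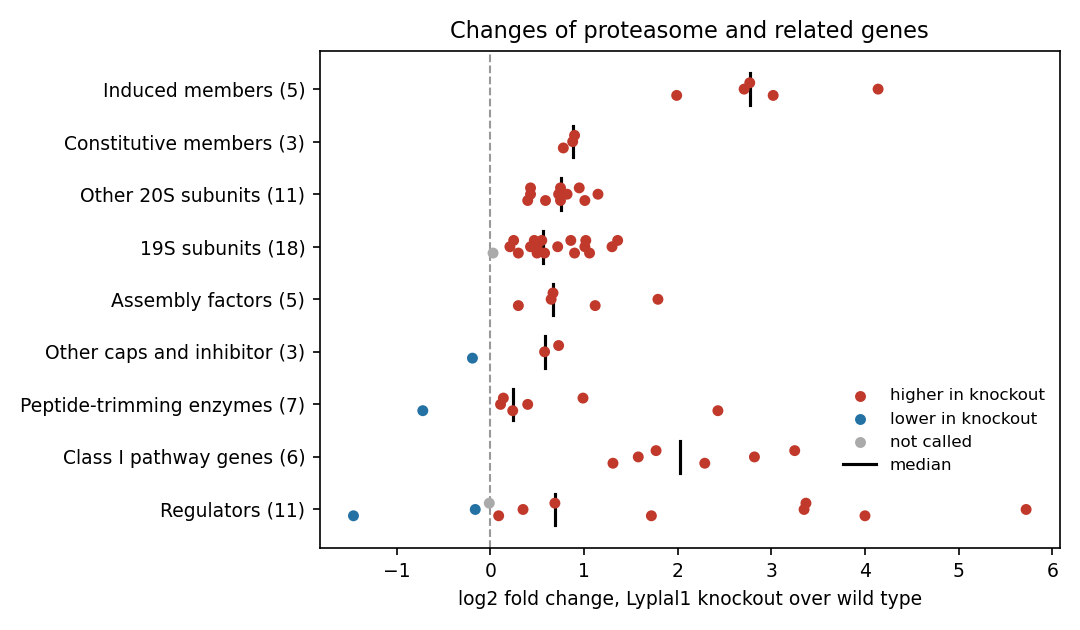
log2 fold change, Lyplal1 knockout over wild type, of every tested gene of each list, with the number tested in brackets and the list's median as a black line. Colours give the edgeR call. The 5 induced members lie between 1.99 and 4.14 and the 3 constitutive members between 0.78 and 0.90, within the range of 0.40 to 1.15 of the other 20S subunits. Psmd6, Psmd12, Rela, Tpp2 and Blmh, between 0.03 and 0.21, were on the other side of 0 on the deposited TPM.

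Of 18 genes of the 19S particle, which recognises and unfolds ubiquitinated substrates, 17 rose and 1 was not called. The share of all tested genes called as higher was 41.3%. The median log2 fold change of the 18 was 0.56, and Psmd2, Psmc2 and Psmd11 changed most, at 1.36, 1.30 and 1.06. The gene not called was Psmd12 at 0.03, which was called as lower with upper-quartile factors (-0.10, edgeR adjusted p = 0.0142) and on TPM (-0.17, limma-trend adjusted p = 0.000959). Psmd6, at 0.21, lost its call under both and was just below 0 on TPM, where Psmc1 and Psmc6 were not called either. All 5 genes of assembly factors rose, against 41.3% of all tested genes, with a median of 0.67. The largest changes were those of Psmg1, a chaperone of ring assembly, at 1.79 ± 0.0642 (SE), of Psmg4 at 1.12 and of Psmg2 at 0.67. Pomp, the maturation factor that binds new catalytic subunits, was at 0.65. Psmg3 was at 0.30 (edgeR adjusted p = 0.0164), and was not called with upper-quartile factors, DESeq2 or TPM, nor without wild-type replicate 2 (0.22, adjusted p = 0.104).

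The regulators listed for this pathway were measured beside the members. Of 11, 8 rose, 2 fell and 1 was not called, with a median log2 fold change of 0.69. Of all tested genes, 41.3% were called as higher and 40.9% as lower. Irf1, an interferon regulatory factor known to drive Psmb8, Psmb9 and Psmb10, had 7920, 8091 and 8770 counts in knockout, against 935, 909 and 868 in wild type, a 10.2-fold rise. Stat2 and Irf9, which act in the response to type I interferon, rose as well, Stat2 10.3-fold and Irf9 16-fold. Nlrc5, the transactivator of MHC class I genes, was 1.61-fold higher, at 63.8 ± 3.39 CPM in knockout and 39.6 ± 1.12 CPM in wild type (SD, n = 3 each). Irf2, which competes with Irf1 for its sites, was 1.28-fold higher. Irf8, a factor of myeloid and B cells, fell by 1.46 on the log2 scale. Nfe2l1, which encodes the factor that raises constitutive proteasome genes when proteasome activity is short, was 3.3-fold higher, at 1860 ± 35.6 CPM in knockout and 565 ± 8.83 CPM in wild type (SD, n = 3 each). Nfe2l2, the NRF2 gene, fell by 0.16. The NF-kB genes were near 0. Rela was at 0.09 and called (edgeR adjusted p = 0.0331), but overlapped between groups, was below 0 with upper-quartile factors and was called as lower on TPM (-0.11, limma-trend adjusted p = 0.0281). Its call was lost with DESeq2 and without wild-type replicate 2, wild-type replicate 3 or knockout replicate 3 (adjusted p 0.0687 to 0.295). Nfkb1 was at -0.01 and not called, but was called as lower with upper-quartile factors (-0.15, edgeR adjusted p = 0.00048) and on TPM (-0.22, limma-trend adjusted p = 0.000673).

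Downstream of the proteasome, peptides are trimmed and carried into the endoplasmic reticulum for loading. All 6 class I pathway genes listed rose, against 41.3% of all tested genes. Their median log2 fold change was 2.03, ranging from 1.31 for B2m, the light chain, to 3.25 for Tap1. Tapbp was at 2.82 and Tap2 at 2.29. Psmb9 and its divergent neighbour Tap1 thus had log2 fold changes of 3.02 and 3.25. Of 7 peptide-trimming enzymes 6 rose and 1 fell, against 41.3% and 40.9% of all tested genes. The median of the 7 was 0.24. Erap1, the aminopeptidase of the endoplasmic reticulum, rose 5.37-fold and the cytosolic leucine aminopeptidase gene Lap3 1.98-fold. Npepps, the puromycin-sensitive aminopeptidase gene, fell by 0.72 on the log2 scale. Blmh, the bleomycin hydrolase gene, was the smallest at 0.11 and lost its call with upper-quartile factors, DESeq2 and TPM and without any 1 of wild-type replicates 1 and 3 and knockout replicates 1 and 2 (adjusted p 0.0552 to 0.147). Both Blmh and Tpp2 were below 0 on TPM, and Nln was not called there.

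The profile of each induced member was set against those of all other tested genes by the Euclidean distance between log2 CPM (prior count 2) over the 6 libraries after subtraction of each gene's mean, a description that mostly reflects the size of the difference between the groups. Psmb8 and Psme2 were each other's second nearest gene, at a distance of 0.169. The nearest gene to Psmb8 was Tmem141 (distance 0.163) and the nearest to Psme2 was Trim12c, a TRIM protein gene (0.164). Psmb9 was nearest to H2-T22, a nonclassical class I gene that shares sequence with other heavy chain genes (0.173), and then to Steap3, a ferrireductase gene (0.248). Psme1 was nearest to Tmem39a (0.0934) and Gas5, a noncoding host gene of small nucleolar RNAs (0.118). Psmb10 had no gene as near, with Prom2 at 0.276 and Sh2d6, without a count in wild type, at 0.279. The log2 fold change of Sh2d6 was 8.22, against 4.14 for Psmb10, so its distance depends on the prior count.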

How the data were processed

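RNA of 6 libraries of 4T-1 cells was extracted with Trizol and sequenced with a DNBseq quantification library, per the labels' protocols. The build GRCm38 and the tools featureCounts 2.0.1 and STAR 2.7.8a come from the submitters' processing notes, while the sources used here give no annotation release, strand setting or handling of shared reads. For 55487 genes the authors deposited TPM and whole-number counts. The file of each sample held the same values as its column in the whole-series tables. Identifiers were matched to GENCODE M21 (55227 matched).

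Knockout was compared with wild type by glmQLFTest of edgeR (robust, two-sided), after filterByExpr and with TMM factors, and p-values were adjusted by Benjamini-Hochberg over 13022 genes (threshold 0.05). CPM use TMM-adjusted library sizes, and each SE is the log2 change over the square root of F. Levels between genes use the deposited TPM. Ratios were tested by exact permutation over libraries. The edgeR test was checked on simulated counts in which few genes changed, as many up as down. That check does not cover a comparison in which most genes were called. Members and lists were chosen with earlier results of these data known. Text names all members, caps and regulators, the 3 largest changes and the smallest of other lists, and the 2 nearest profiles of each induced member (provisional gene models passed over), and others (Tpp2, Nln, Psmd6, Psmc1, Psmc6, Pomp, overlapping genes, copies and the markers) were chosen after their values were seen. Alternatives were other scaling factors, DESeq2, no filter, limma-trend on log2 TPM with 1 or 0.1 added, a replicate block and leaving out each library. Fits ran in edgeR 4.0.16, DESeq2 1.42.0 and limma 3.58.1 under R 4.3.3, and other steps in SciPy 1.17.1 under Python 3.11.15. Some listed genes are not reported here by name.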

Additional observations from a re-analysis of the deposited data

How the results depend on the processing

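All 104 log2 fold changes of members under 13 settings kept their direction and stayed called (largest adjusted p = 1.77e-05, over edgeR, DESeq2 and limma-trend), and all 8 members were called as higher under each. All 61 values of the 6 ratios kept their sign. Leaving out each library in turn gave log2 fold changes of 4.07 to 4.18 for Psmb10, 2.95 to 3.13 for Psmb9, 2.65 to 2.75 for Psmb8, 2.71 to 2.85 for Psme2, 1.95 to 2.02 for Psme1, 0.82 to 0.96 for Psmb5, 0.81 to 0.96 for Psmb6 and 0.77 to 0.81 for Psmb7. The number of genes called ranged from 10272 (DESeq2) to 12030 (no filter), both out of 27543 genes with a count in any library. In the main fit it was 10711 of 13022. Correlations of same-numbered deviations from the group means were -0.007, 0.042 and 0.013, and those of differently numbered libraries ran from -0.038 to 0.022. With 3 libraries a group these values cannot settle whether the replicate numbers pair the libraries. With the replicate block 10798 of 13022 genes and all 8 members were called. Adding Psme2b to Psme2 gave a Psme1/Psme2 difference of -0.79. With the length of 1 transcript the induced shares moved to 71.5% in knockout and 41.7% in wild type for Psmb8, 18.3% in knockout and 4.84% in wild type for Psmb9, and 56.2% in knockout and 11.2% in wild type for Psmb10, and to 44.5% in knockout and 11.9% in wild type for the 3 together, by construction of the length. Ratios tested over 3 against 3 libraries cannot reach the threshold, whatever their size.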
